A study of Homo sapiens with 15 samples.

Results

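MHC class I antigen presentation was described by 9 genes, namely the heavy chains HLA-B, HLA-C and HLA-E, the light chain B2M, the peptide transporter subunits TAP1 and TAP2, the loading factor TAPBP, the transactivator NLRC5 and the immunoproteasome subunit PSMB9. The genes were chosen by symbol, and they made up 9 of the 60649 genes listed for each library. Testing required a mean normalized count of at least 3, which 8 of the 9 met, among 14056 genes tested in all. TAP2 did not meet it, with 0 counts in 15 of 15 libraries.

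RNA of HSC-5, an established human line derived from a squamous cell carcinoma of the skin, was read in 5 conditions of 3 biological replicates each. Cells expressing Cas9 received lentiviral guide RNAs, and the labels give sgNeg, the empty-vector control, as WT, sgPRMT5-1 and sgPRMT5-2 as PRMT5 Knockout, and sgWDR77-1 and sgWDR77-2 as WDR77 Knockout. Neomycin is given as the treatment of all 15 libraries, the controls included. PRMT5KO and WDR77KO denote below the 6 libraries of both guides to a gene, each set against the same 3 sgNeg libraries, so that the comparisons with sgNeg share their controls.

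Reads of 76 nt were counted on genes, with totals of 5824192, 5806938 and 5434211 in sgNeg replicates 1, 2 and 3. The totals were 6704352, 5958936 and 5974844 in sgPRMT5-1 and 6730428, 6058519 and 6124306 in sgPRMT5-2. They were 5489385, 5146711 and 5203698 in sgWDR77-1 and 5225996, 5613325 and 5527881 in sgWDR77-2. Levels are given as CPM, each gene's count set relative to the TMM-scaled total of its library, and 3 counts in a library corresponded to 0.458 to 0.578 CPM. At this depth HLA-B rested on 25 to 110 counts per library, PSMB9 on 82 to 213, NLRC5 on 109 to 248, TAP1 on 158 to 398, HLA-E on 241 to 344 and TAPBP on 260 to 459, whereas HLA-C rested on 924 to 1546 and B2M on 892 to 2057. These floors cover counting error only, whereas the 95% intervals of log2 fold changes given below come from the fit and include the spread between replicates. That spread is 1 estimate per gene over all 15 libraries, so an interval also holds spread from conditions outside its comparison.

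MHC class I molecules show peptides from inside the cell to CD8 T cells and natural killer cells. The proteasome cuts proteins into peptides, TAP1 and TAP2 carry these into the endoplasmic reticulum, and TAPBP (tapasin) helps load them onto a heavy chain paired with B2M. Interferon gamma raises most of these genes through IRF1 and NLRC5, and carcinomas, those of squamous epithelium included, often lower them, which bears on recognition by T cells.

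The labelled cell type was compared with its markers. Of 6 keratinocyte markers, 5 reached a mean of 1 CPM or more, led by KRT17 at 928 CPM, while KRT14 stood at 0.440 CPM. Their summed level was 2201, 2255 and 2669 CPM in sgNeg, 2212, 2375 and 2131 CPM in sgPRMT5-1, 1812, 1796 and 1885 CPM in sgPRMT5-2, 1892, 1746 and 1799 CPM in sgWDR77-1, and 2582, 2535 and 2590 CPM in sgWDR77-2. It was thus below every sgNeg library in all libraries of sgPRMT5-2 and sgWDR77-1. The sum holds opposite changes. KRT5 fell with each of the 4 guides, from a mean of 656 CPM in sgNeg to 270 CPM in sgPRMT5-1 (log2 fold change -1.27), 55.9 CPM in sgPRMT5-2 (-3.53), 39.97 CPM in sgWDR77-1 (-4.02) and 91.3 CPM in sgWDR77-2 (-2.82), with limma voom adjusted p of 1.22e-05 or less. DSG3 fell in PRMT5KO by -0.68 (limma voom adjusted p = 9.88e-05) and in WDR77KO by -0.82 (2.71e-05), and SFN rose in PRMT5KO by 0.42 (0.000558). SFN also rose with sgWDR77-2 (0.34, limma voom adjusted p = 0.0315), but not with sgWDR77-1 (-0.0043, 0.984) or in WDR77KO (0.17, 0.212). KRT17 rose in WDR77KO by 0.41 (limma voom adjusted p = 0.00121; 0.317 in a fit of the 9 libraries alone), with a mean of 1431 CPM in sgWDR77-2 and 805 CPM in sgWDR77-1 against 807 CPM in sgNeg, while TP63 passed in neither. The part of these markers in the results was not tested. Of 6 leukocyte markers 1 reached 1 CPM (ITGAM, 1.26 CPM), CD3E and TYROBP were at 0, and the sum was 1.09 to 3.83 CPM per library. ITGAM had 4, 1 and 2 counts in sgNeg and 4 to 13 in the other libraries, and its CPM was above every sgNeg library in all 12. It passed as higher in WDR77KO (1.88, limma voom adjusted p = 0.0446), sgPRMT5-2 (1.87, 0.0244) and sgWDR77-1 (1.998, 0.04401). These calls were fragile. In sgPRMT5-2 it did not pass without sgNeg replicate 2 (1.43, limma voom adjusted p = 0.119) or 3 (1.85, 0.0657) or sgPRMT5-2 replicate 2 (1.70, 0.0738) or 3 (1.83, 0.0517). In PRMT5KO it had 1.60 (limma voom adjusted p = 0.0505). In sgWDR77-1 it kept its call only without sgPRMT5-1 replicate 2 or 3, sgWDR77-1 replicate 2 or sgWDR77-2 replicate 1 or 3, and in WDR77KO only without sgPRMT5-1 replicate 3, sgWDR77-1 replicate 2 or sgWDR77-2 replicate 3, with limma voom adjusted p of up to 0.149 and 0.191 (both without sgNeg replicate 2) among the others, and in neither did it pass without the filter or in a fit of the compared libraries alone. Of 5 fibroblast markers 1 reached it (COL1A1, 10.7 CPM), COL1A2 was at 0, and the sum was 6.69 to 15.5 CPM. COL1A1 had -0.65 with sgPRMT5-2 (limma voom adjusted p = 0.0477), which did not pass without sgNeg replicate 1 (-0.66, 0.101) or 2 (-0.57, 0.149), sgPRMT5-1 replicate 3 (-0.67, 0.0513), sgPRMT5-2 replicate 1 (-0.51, 0.19) or 2 (-0.59, 0.147), sgWDR77-1 replicate 2 (-0.67, 0.0531) or sgWDR77-2 replicate 3 (-0.67, 0.0536), nor without the filter on low counts (-0.65, 0.1018) or by limma-trend (-0.62, 0.0561). Of 4 endothelial markers 2 reached it, led by CDH5 at 20.0 CPM, with a sum of 12.7 to 36.1 CPM that was highest in sgWDR77-1 at 34.2, 31.3 and 36.1 CPM. CDH5 rose with that guide by 0.80 (limma voom adjusted p = 0.00325; 0.117 without sgWDR77-1 replicates 1 and 3 together), whereas VWF, the other one, lay below every sgNeg library in all 12 other libraries, at means of 2.85 CPM in sgNeg against 1.116 CPM in sgPRMT5-1, 0.673 CPM in sgPRMT5-2, 2.025 CPM in sgWDR77-1 and 1.94 CPM in sgWDR77-2, and fell in PRMT5KO by -1.90 (limma voom adjusted p = 0.00233). The part of these markers in the results was not tested either.

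PRMT5, an arginine methyltransferase (ENSG00000100462.16, GRCh38 chromosome 14, 22920525 to 22929408, minus strand), stood at 59.1, 49.6 and 67.8 CPM in sgNeg, 33.0, 35.8 and 41.4 CPM in sgPRMT5-1, 44.2, 44.5 and 39.4 CPM in sgPRMT5-2, 54.5, 64.2 and 54.4 CPM in sgWDR77-1, and 79.9, 65.2 and 64.5 CPM in sgWDR77-2. All 6 PRMT5-guide libraries lay below every sgNeg library. PRMT5 fell in PRMT5KO with a log2 fold change of -0.56 (95% interval -0.79 to -0.33, limma voom with Benjamini-Hochberg adjustment over the 14056 genes, adjusted p = 0.00106). WDR77, its binding partner (ENSG00000116455.14, chromosome 1, 111439890 to 111449256, minus strand), stood at 125, 114 and 119 CPM in sgNeg, 134, 119 and 156 CPM in sgPRMT5-1, 126, 130 and 119 CPM in sgPRMT5-2, 30.9, 52.0 and 53.3 CPM in sgWDR77-1, and 26.6, 24.9 and 22.0 CPM in sgWDR77-2. All 6 WDR77-guide libraries lay below every other library, and WDR77 fell in WDR77KO by 1.86 on the log2 scale (limma voom adjusted p = 2.28e-09). The mRNA was lower with sgWDR77-2 than with sgWDR77-1 by a log2 difference of -0.85 (limma voom adjusted p = 0.0157), whereas for PRMT5 the 2 guides differed by 0.22 (95% interval -0.06 to 0.51, limma voom adjusted p = 0.33). The difference between the WDR77 guides was not called without sgWDR77-2 replicate 1 (-0.92, limma voom adjusted p = 0.0675) or replicate 2 (-0.88, 0.0621), nor in a fit of the 6 libraries alone (-0.86, 0.177). Each target was thus lower in the libraries labelled with its guides, although mRNA does not measure the protein.

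In this averaged level 2 libraries of 1 condition, sgWDR77-1 replicates 1 and 3, stood apart on opposite sides. Averaged over the 8 tested genes, the standardized log2 CPM was -1.48 in sgWDR77-1 replicate 1, the lowest of the 15 libraries, 1.63 in replicate 3, the highest, and 0.61 in replicate 2. It was 0.57, -0.40 and 0.17 in sgNeg, 0.21, -0.12 and -0.24 in sgPRMT5-1, -0.71, -0.87 and -0.38 in sgPRMT5-2, and -0.12, 0.51 and 0.62 in sgWDR77-2. Replicate 1 of sgWDR77-1 was lowest of all libraries in 5 of the 8 genes and replicate 3 highest in 6 of the 8. Across all genes tested, replicate 1 also had the lowest mean correlation with its own replicates, at 0.9749 against 0.9797 to 0.9895 for the other 14 libraries. For the members, results that rest on either of the 2 are given below with and without it, and a fit without both was added after seeing the data. Counts and medians of the other gene lists are given with all libraries only.

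**Figure D1:**
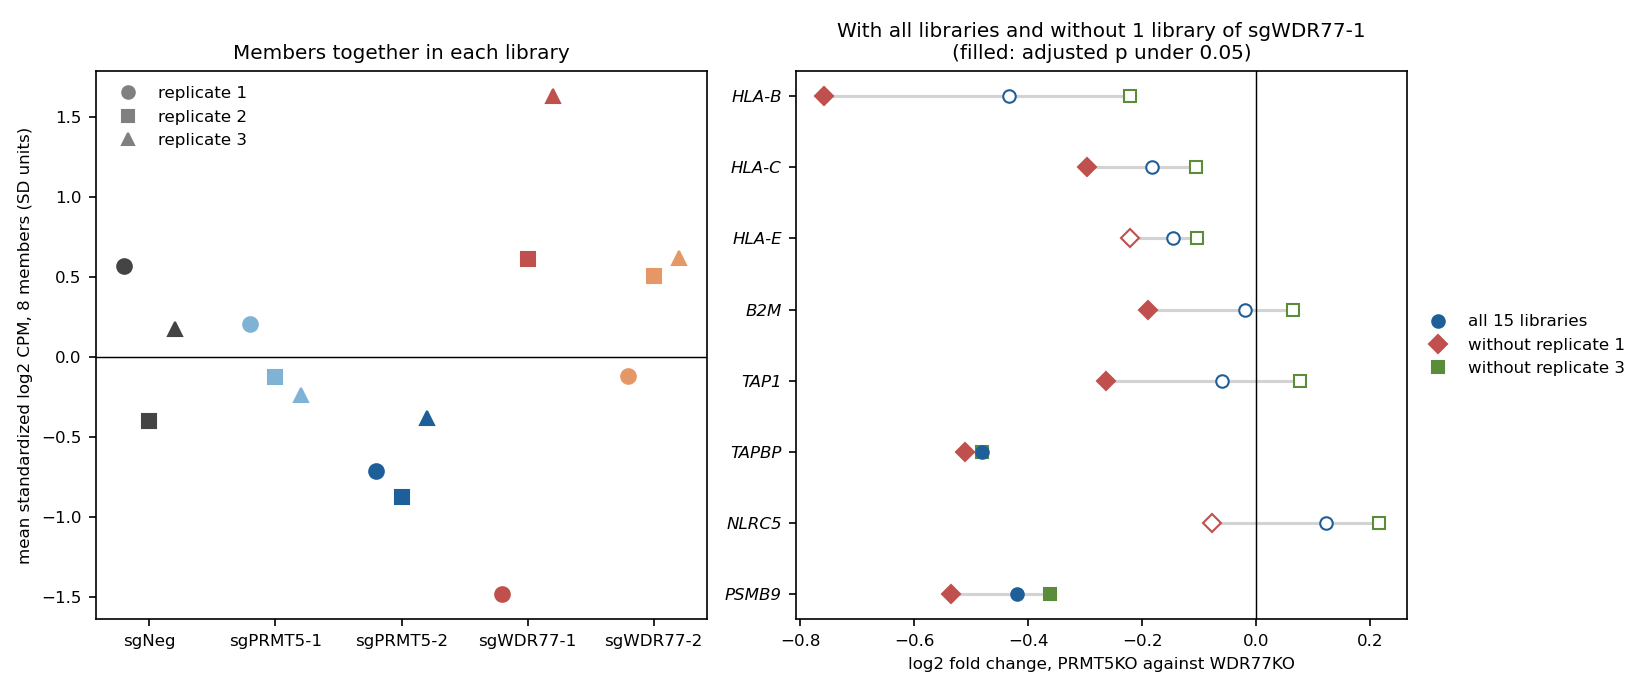
Left, mean standardized log2 CPM of the 8 tested genes (y axis, SD units) in each library by condition, with a marker shape for each replicate number. Right, log2 fold change of PRMT5KO against WDR77KO for each gene with 15 libraries (circles), without sgWDR77-1 replicate 1 (diamonds) and without sgWDR77-1 replicate 3 (squares), filled where the limma voom adjusted p was under 0.05, with HLA-B at -0.43, -0.76 and -0.22.

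The 8 tested genes differed widely in level, which can be compared between genes only per kilobase of exon. B2M and HLA-C led with means of 89.3 and 83.5 CPM per kb over the 15 libraries, HLA-E followed at 17.2, and TAP1, TAPBP and PSMB9 stood at 9.93, 9.57 and 7.19 CPM per kb. NLRC5 at 2.88 and HLA-B at 2.32 CPM per kb were the lowest. Counts of the heavy chains are uncertain, because these genes are highly polymorphic and close to one another in sequence, and multi-mapped reads, which made up 9.49% to 13.1% of a library, were not assigned to genes. Of the exon bases of HLA-B, 32.7% also lie under other genes of the same strand. The strand setting and annotation release of the counting were not given in the sources used here, which also touches TAPBP and TAP1, with 21.0% and 14.2% of exon bases under a gene of the other strand.

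The heavy chains bind the peptide. HLA-B (ENSG00000234745.13, chromosome 6, 31353872 to 31367067, minus strand) stood at 13.0, 9.53 and 10.5 CPM in sgNeg, 11.6, 8.32 and 7.02 CPM in sgPRMT5-1, 8.86, 7.48 and 8.46 CPM in sgPRMT5-2, 4.62, 13.5 and 20.1 CPM in sgWDR77-1, and 9.44, 13.4 and 14.8 CPM in sgWDR77-2. All 3 sgPRMT5-2 libraries were below every sgNeg library, while sgWDR77-1 held both the lowest and the highest of the 15 values. By mean ± SD (n = 3) the order was sgWDR77-1 at 12.7 ± 7.76, sgWDR77-2 at 12.5 ± 2.77, sgNeg at 11.03 ± 1.81, sgPRMT5-1 at 8.98 ± 2.37 and sgPRMT5-2 at 8.27 ± 0.711 CPM, and every pair of neighbours overlapped. HLA-C (ENSG00000204525.17, chromosome 6, 31268749 to 31272130, minus strand), a classical heavy chain and a ligand of killer cell receptors, stood at 222, 178 and 212 CPM in sgNeg, 204, 182 and 205 CPM in sgPRMT5-1, 192, 189 and 206 CPM in sgPRMT5-2, 171, 219 and 282 CPM in sgWDR77-1, and 212, 227 and 241 CPM in sgWDR77-2. Only the extremes of sgWDR77-1 and the upper values of sgWDR77-2 left the range of sgNeg. The means were 226 ± 14.4 in sgWDR77-2, 224 ± 55.9 in sgWDR77-1, 204 ± 23.1 in sgNeg, 197 ± 13.5 in sgPRMT5-1 and 196 ± 9.31 CPM in sgPRMT5-2 (SD, n = 3), with overlap between all neighbours. HLA-E (ENSG00000204592.9, chromosome 6, 30489509 to 30494194, plus strand), the non-classical chain that presents leader peptides to natural killer cells, stood at 56.9, 40.6 and 52.2 CPM in sgNeg, 52.6, 48.4 and 48.6 CPM in sgPRMT5-1, 46.3, 42.7 and 48.1 CPM in sgPRMT5-2, 46.6, 53.3 and 62.6 CPM in sgWDR77-1, and 46.4, 52.3 and 57.1 CPM in sgWDR77-2. The 3 sgNeg libraries alone spanned most of this range, and the 5 condition means lay between 45.7 ± 2.75 CPM in sgPRMT5-2 and 54.2 ± 8.05 CPM in sgWDR77-1 (SD, n = 3). Among neighbours in the order of means, only sgPRMT5-1 and sgPRMT5-2 did not overlap, and their difference did not pass the test (limma voom adjusted p = 0.595 for a log2 difference of -0.13).

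B2M (ENSG00000166710.21, chromosome 15, 44711358 to 44718851, plus strand), the light chain shared by all class I molecules, stood at 348, 293 and 297 CPM in sgNeg, 299, 291 and 264 CPM in sgPRMT5-1, 247, 235 and 256 CPM in sgPRMT5-2, 165, 282 and 324 CPM in sgWDR77-1, and 252, 332 and 295 CPM in sgWDR77-2. All sgPRMT5-2 libraries were below every library of sgNeg and of sgPRMT5-1, and the lowest value of all was that of sgWDR77-1 replicate 1. The order of means was sgNeg at 313 ± 30.9, sgWDR77-2 at 293 ± 39.8, sgPRMT5-1 at 285 ± 18.3, sgWDR77-1 at 257 ± 82.4 and sgPRMT5-2 at 246 ± 10.5 CPM (SD, n = 3), with every pair of neighbours overlapping.

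TAP1 (ENSG00000168394.12, chromosome 6, 32845209 to 32853816, minus strand), a subunit of the peptide transporter, stood at 49.3, 40.8 and 45.0 CPM in sgNeg, 46.3, 49.1 and 47.4 CPM in sgPRMT5-1, 42.8, 42.8 and 46.5 CPM in sgPRMT5-2, 29.2, 52.6 and 72.6 CPM in sgWDR77-1, and 43.1, 50.7 and 47.7 CPM in sgWDR77-2. Outside sgWDR77-1 the 12 libraries kept within 40.8 to 50.7 CPM, whereas the replicates of sgWDR77-1 held the lowest value and the 2 highest. The means ran from 44.04 ± 2.16 CPM in sgPRMT5-2 over 45.0 ± 4.26 in sgNeg, 47.2 ± 3.81 in sgWDR77-2 and 47.6 ± 1.39 in sgPRMT5-1 to 51.5 ± 21.7 CPM in sgWDR77-1 (SD, n = 3), all neighbours overlapping. TAP2 (ENSG00000204267.16, chromosome 6, 32821833 to 32838739, minus strand), the other subunit, had 0 counts in every library. This 0 cannot be read as absence of its RNA. In the GENCODE annotation used for coordinates, 19.5% of its exon bases lie under another gene of the same strand, where reads can be set aside as ambiguous, and the cause was not tested. TAPBP (ENSG00000231925.12, chromosome 6, 33299694 to 33314284, minus strand), which bridges the transporter and the empty heavy chain, stood at 69.3, 55.2 and 55.0 CPM in sgNeg, 65.1, 60.9 and 61.1 CPM in sgPRMT5-1, 44.9, 44.2 and 48.2 CPM in sgPRMT5-2, 79.4, 79.0 and 83.8 CPM in sgWDR77-1, and 60.7, 67.0 and 80.5 CPM in sgWDR77-2. The 3 sgPRMT5-2 libraries were the lowest of the 15, and all 3 sgWDR77-1 libraries, replicate 1 included, were above every sgNeg library. The order of means was sgWDR77-1 at 80.7 ± 2.62, sgWDR77-2 at 69.4 ± 10.1, sgPRMT5-1 at 62.4 ± 2.34, sgNeg at 59.8 ± 8.17 and sgPRMT5-2 at 45.8 ± 2.15 CPM (SD, n = 3), and among neighbours only sgNeg and sgPRMT5-2 did not overlap.

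NLRC5 (ENSG00000140853.16, chromosome 16, 56989485 to 57083531, plus strand), the transactivator of class I promoters, stood at 26.1, 38.0 and 35.6 CPM in sgNeg, 37.6, 35.0 and 31.3 CPM in sgPRMT5-1, 38.6, 39.95 and 41.5 CPM in sgPRMT5-2, 20.1, 40.4 and 43.97 CPM in sgWDR77-1, and 39.5, 36.9 and 30.2 CPM in sgWDR77-2. All sgPRMT5-2 libraries were above every sgNeg and sgPRMT5-1 library, and sgWDR77-1 replicate 1 was again the lowest. From 39.98 ± 1.45 CPM in sgPRMT5-2 the means passed 35.6 ± 4.77 in sgWDR77-2, 34.8 ± 12.9 in sgWDR77-1 and 34.6 ± 3.14 in sgPRMT5-1 to 33.2 ± 6.29 CPM in sgNeg (SD, n = 3), with overlap between all neighbours.

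PSMB9 (ENSG00000240065.8, chromosome 6, 32844136 to 32859851, plus strand), the catalytic subunit that replaces PSMB6 in the immunoproteasome, stood at 36.1, 27.0 and 30.8 CPM in sgNeg, 22.9, 26.0 and 24.5 CPM in sgPRMT5-1, 13.1, 13.9 and 15.4 CPM in sgPRMT5-2, 19.0, 26.3 and 29.9 CPM in sgWDR77-1, and 24.1, 23.7 and 27.2 CPM in sgWDR77-2. The 3 sgPRMT5-2 libraries were the lowest of all 15, and all 6 PRMT5-guide libraries lay below every sgNeg library. The order of means was sgNeg at 31.3 ± 4.57, sgWDR77-1 at 25.1 ± 5.55, sgWDR77-2 at 25.0 ± 1.92, sgPRMT5-1 at 24.5 ± 1.53 and sgPRMT5-2 at 14.1 ± 1.18 CPM (SD, n = 3), and among neighbours only sgPRMT5-1 and sgPRMT5-2 did not overlap. In bulk RNA, fewer cells that express a gene and less RNA per cell cannot be told apart.

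**Figure D2:**
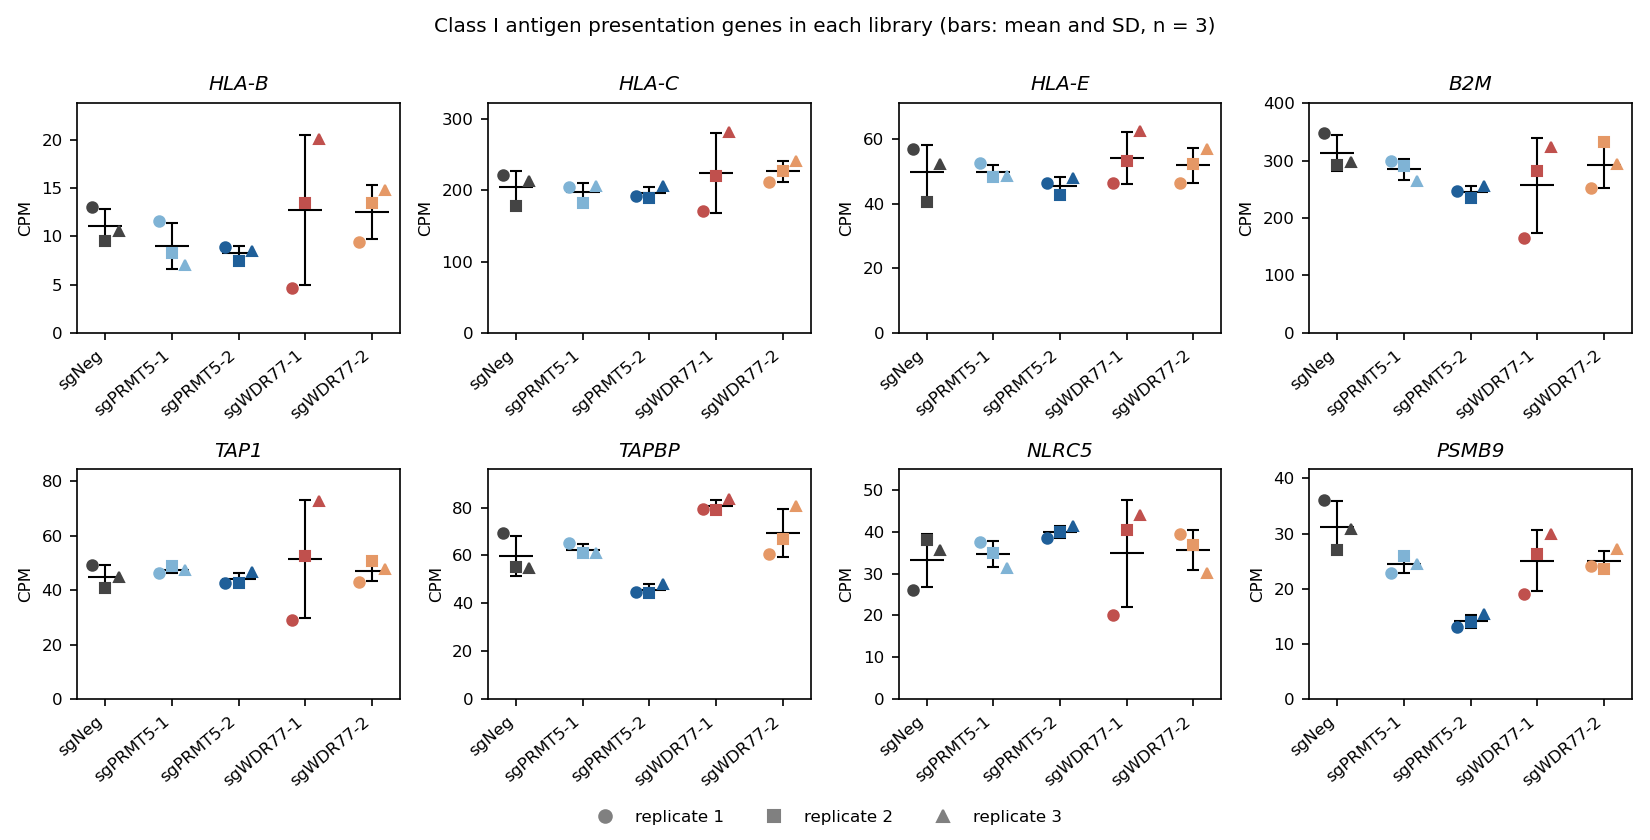
CPM (y axis) of each of the 8 tested genes in every library by condition (x axis), with a marker shape for each replicate number and bars for the mean ± SD of 3 libraries. PSMB9 and TAPBP sit lowest in sgPRMT5-2, at 14.1 and 45.8 CPM on average, and for HLA-B the replicates of sgWDR77-1 spread most widely, from 4.62 to 20.1 CPM.

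Promoter sequences were taken from RefSeq (GRCh38.p14), which gave a window for 7 of the 9 genes and none for HLA-E and NLRC5. In the 250 bases before each start, 4 motifs were searched on both strands, with overlapping matches counted. The ISRE-like motif, GAAA followed by any 2 bases and another GAAA, was found in 3.02% of 35116 promoters. The GAS-like motif TTCNNNGAA was found in 6.57%, the kappa B-like motif, GGG, any 2 bases, TT, any 1 base and CC, in 5.07%, and CCAAT in 32.0%. The ISRE-like motif matched in B2M, TAP1, TAP2 and TAPBP, the kappa B-like motif in B2M, HLA-B, TAP1 and TAPBP, the GAS-like motif in a second TAP1 window, and CCAAT in 5 of the genes. The CCAAT match of PSMB9 and that of TAP1 are 1 and the same site, where their windows overlap. The sequences below are PSMB9 and TAPBP, the genes with the differences between conditions that passed the test, TAP1, whose start lies 488 bases from that of PSMB9 on the opposite strand, and PSMB10, another immunoproteasome subunit. Capitals mark ISRE-like and kappa B-like matches, and each is written 5′ to 3′ on the strand of its gene, PSMB9 from chr6:32853942-32854191 (plus), TAP1 from chr6:32853705-32853954 (minus), TAPBP from chr6:33314079-33314328 (minus) and PSMB10 from chr16:67936851-67937100 (minus).
PSMB9: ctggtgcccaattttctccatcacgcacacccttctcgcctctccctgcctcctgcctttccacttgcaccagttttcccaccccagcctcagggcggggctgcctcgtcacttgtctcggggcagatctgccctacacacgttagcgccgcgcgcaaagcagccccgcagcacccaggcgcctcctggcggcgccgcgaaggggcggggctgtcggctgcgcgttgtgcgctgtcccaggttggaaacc
TAP1: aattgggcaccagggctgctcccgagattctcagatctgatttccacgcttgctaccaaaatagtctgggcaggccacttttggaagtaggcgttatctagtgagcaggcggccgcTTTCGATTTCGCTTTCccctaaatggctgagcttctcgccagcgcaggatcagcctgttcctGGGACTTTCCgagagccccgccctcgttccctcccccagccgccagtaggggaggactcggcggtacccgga
TAPBP: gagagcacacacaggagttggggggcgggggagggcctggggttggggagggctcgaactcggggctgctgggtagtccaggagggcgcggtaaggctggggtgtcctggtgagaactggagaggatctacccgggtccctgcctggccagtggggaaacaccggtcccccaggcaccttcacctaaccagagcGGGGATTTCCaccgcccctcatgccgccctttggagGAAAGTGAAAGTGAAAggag
PSMB10: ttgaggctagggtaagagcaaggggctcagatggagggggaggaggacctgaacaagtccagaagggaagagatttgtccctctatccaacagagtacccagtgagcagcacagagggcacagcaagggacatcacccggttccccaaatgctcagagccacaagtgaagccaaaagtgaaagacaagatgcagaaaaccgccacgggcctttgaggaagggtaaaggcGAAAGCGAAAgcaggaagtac
TAP1 holds 2 overlapping ISRE-like matches, which begin 134 and 128 bases before the start, and a kappa B-like match at 72 bases. TAPBP likewise holds 2 overlapping ISRE-like matches, at 20 and 14 bases, and a kappa B-like match at 56 bases, and 2 or more ISRE-like matches occurred in 0.225% of all promoters. PSMB10 holds 1 ISRE-like match at 21 bases. PSME2 holds 1 at 28 bases, whereas neither an ISRE-like nor a kappa B-like match was found in PSME1 or in either of the 2 windows of PSMB8. PSMB9, the gene with the largest log2 fold change among the 8 tested, holds neither motif in this window, and its 1 match was CCAAT at 243 bases. The ISRE-like and kappa B-like matches of TAP1 lie between the 2 starts, and so before PSMB9 too. They fall outside the 250 bases searched for PSMB9, so its lack of a match holds for that window only. A match is a description of letters and says nothing of binding.

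With sgPRMT5-1, none of the 8 tested genes changed against sgNeg by the main test. The comparison asks how the pathway stood with the first guide to PRMT5. PSMB9 came nearest, with 24.5 ± 1.53 CPM against 31.3 ± 4.57 CPM (SD, n = 3) and all 3 libraries below every sgNeg library. HLA-B and B2M each had 2 of 3 libraries below every sgNeg library. HLA-B reached 7.02 CPM against 9.53 CPM in the lowest sgNeg library, and B2M 264 against 292.5 CPM. HLA-C, HLA-E, TAP1, TAPBP and NLRC5 lay within the sgNeg range.

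By limma voom 0 of the 8 genes passed an adjusted p of 0.05, against 2.87% of all genes tested (1.26% higher and 1.61% lower), with 1 at an unadjusted p under 0.05 and 0 by limma-trend. Of all 14056 genes tested, 2457 had an unadjusted p under 0.05 with sgPRMT5-1, 3366 with sgWDR77-1 and 2753 with sgWDR77-2. The numbers were 4951 in PRMT5KO, 3127 in WDR77KO and 2657 between the WDR77 guides. Counts at an unadjusted p, here and below, are to be read beside these numbers. The log2 fold change of PSMB9 was -0.35 (95% interval -0.65 to -0.04, limma voom adjusted p = 0.229). HLA-B had -0.30 (95% interval -1.01 to 0.41), B2M -0.13 (-0.46 to 0.20), HLA-C -0.05 (-0.31 to 0.22) and HLA-E 0.02 (-0.26 to 0.29). TAP1 had 0.08 (-0.32 to 0.48), NLRC5 0.08 (-0.34 to 0.49) and TAPBP 0.07 (-0.17 to 0.30). The sign for HLA-E turned with the scaling, to -0.02 with RLE factors and -0.05 with library totals. The median over the 8 genes was -0.02, beside 0.02 over all genes tested.

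With sgPRMT5-2, PSMB9 and TAPBP fell while the heavy chains, TAP1 and NLRC5 did not pass the test. PSMB9 was 2.2-fold lower than in sgNeg, at 14.1 ± 1.18 against 31.3 ± 4.57 CPM, and TAPBP was 1.3-fold lower, at 45.8 ± 2.15 against 59.8 ± 8.17 CPM (SD, n = 3). For both genes 3 of 3 libraries were below every sgNeg library.

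The 2 genes lower among 8 stood beside 14.7% of all genes tested called lower, 16.3% called higher and 31.0% called in either direction. PSMB9 had a log2 fold change of -1.14 (95% interval -1.48 to -0.79, limma voom adjusted p = 2.79e-05) and TAPBP -0.38 (-0.62 to -0.13, limma voom adjusted p = 0.0178). B2M had -0.34 (-0.67 to -0.01, limma voom adjusted p = 0.106), also with 3 of 3 libraries below sgNeg. HLA-B had -0.40 (-1.12 to 0.32), HLA-E -0.11 (-0.39 to 0.16), HLA-C -0.05 (-0.32 to 0.21) and TAP1 -0.03 (-0.43 to 0.38). NLRC5 was on the other side at 0.29 (-0.12 to 0.69, limma voom adjusted p = 0.287), with 3 of 3 libraries above sgNeg. The median over the 8 genes was -0.23 beside 0.01 over all genes tested. The call for TAPBP was lost without sgNeg replicate 1 (log2 fold change -0.29, limma voom adjusted p = 0.0999) and without sgPRMT5-2 replicate 2 (-0.38, adjusted p = 0.0517). B2M passed without sgWDR77-1 replicate 1 (-0.37, limma voom adjusted p = 0.00276), without sgWDR77-1 replicate 3 (-0.36, adjusted p = 0.0446), without both (-0.36, adjusted p = 0.00378) and in a fit of the 6 libraries alone (-0.35, adjusted p = 0.000876).

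**Figure D3:**
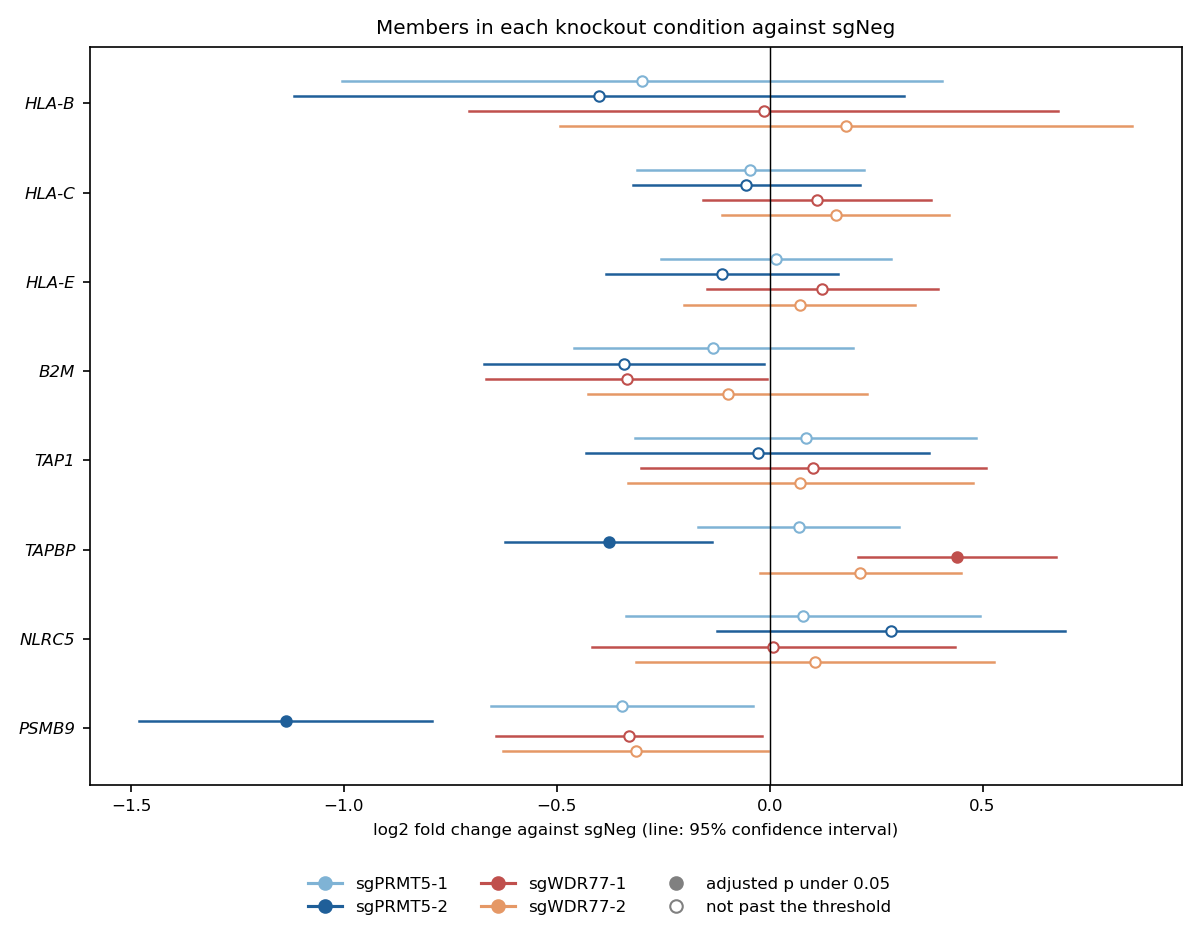
Log2 fold change against sgNeg (x axis) with 95% intervals for the 8 tested genes (y axis) and each of the 4 guides, filled where the limma voom adjusted p was under 0.05. The filled points are PSMB9 at -1.14 and TAPBP at -0.38 with sgPRMT5-2, and TAPBP at 0.44 with sgWDR77-1.

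The 2 PRMT5 guides differed in these genes. TAPBP and PSMB9 were lower with sgPRMT5-2 than with sgPRMT5-1 in 3 of 3 libraries, PSMB9 by 1.73-fold. By limma voom this made 2 of 8 lower, beside 3.98% of all genes tested called lower, 3.56% called higher and 7.54% in either direction. PSMB9 differed by -0.79 on the log2 scale (95% interval -1.14 to -0.44, limma voom adjusted p = 0.00589) and TAPBP by -0.45 (-0.69 to -0.21, limma voom adjusted p = 0.0212). B2M differed by -0.21 (-0.54 to 0.12, limma voom adjusted p = 0.446) and NLRC5 by 0.21 (-0.20 to 0.61, limma voom adjusted p = 0.554), both without overlap between the guides. HLA-B, HLA-C, HLA-E and TAP1 differed by -0.10, -0.01, -0.13 and -0.11. The TAPBP call was lost without sgPRMT5-1 replicate 1 (-0.42, limma voom adjusted p = 0.104) or replicate 2 (-0.46, 0.0637) and without sgPRMT5-2 replicate 1 (-0.43, 0.0884) or replicate 2 (-0.42, 0.09996), while B2M passed in a fit of these 6 libraries alone (-0.21, 0.0298).

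Pooled over both PRMT5 guides, PSMB9 fell in PRMT5KO and no other of the 8 genes passed. PSMB9 was 1.67-fold lower than in sgNeg, in 6 of 6 libraries. This was 1 of 8 genes lower, beside 10.8% of all genes tested called lower, 12.0% called higher and 22.8% in either direction. The log2 fold change was -0.74 (95% interval -1.02 to -0.47, limma voom adjusted p = 0.000368), and it stayed between -0.86 and -0.66 with any 1 library left out. B2M had -0.24 (-0.52 to 0.05, limma voom adjusted p = 0.224) and HLA-B -0.35 (-0.96 to 0.26, limma voom adjusted p = 0.421), each with 5 of 6 libraries below every sgNeg library. TAPBP had -0.15 (-0.36 to 0.05), NLRC5 0.18 (-0.18 to 0.54), HLA-C -0.05 (-0.28 to 0.18), HLA-E -0.05 (-0.28 to 0.19) and TAP1 0.03 (-0.32 to 0.38), the last turning to -0.05 with library totals. The median over the 8 genes was -0.10 beside 0.01 over all genes tested. Without sgWDR77-1 replicate 1, a library of neither group that shares the fit, B2M passed too (-0.26, limma voom adjusted p = 0.0147; 0.0157 without replicate 3 as well) and 4159 genes in place of 3200 were called.

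With sgWDR77-1, TAPBP rose and the other 7 tested genes did not pass. TAPBP was 1.36-fold higher than in sgNeg, at 80.7 ± 2.62 against 59.8 ± 8.17 CPM (SD, n = 3), with 3 of 3 libraries above every sgNeg library. B2M and PSMB9 lay below every sgNeg library in 2 of 3 libraries. HLA-B, HLA-C, TAP1 and NLRC5 had libraries both above and below the whole of sgNeg.

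The 1 gene higher among 8 stood beside 3.58% of all genes tested called higher, 5.90% called lower and 9.48% in either direction. TAPBP had a log2 fold change of 0.44 (95% interval 0.21 to 0.67, limma voom adjusted p = 0.0157). B2M had -0.34 (-0.67 to -0.01, limma voom adjusted p = 0.202) and PSMB9 -0.33 (-0.64 to -0.02, limma voom adjusted p = 0.183). Intervals were wide for HLA-B at -0.01 (-0.71 to 0.68), TAP1 at 0.10 (-0.30 to 0.51) and NLRC5 at 0.01 (-0.42 to 0.43). HLA-C and HLA-E had 0.11 (-0.16 to 0.38) and 0.12 (-0.15 to 0.40). These widths do not measure the spread within sgWDR77-1 alone, since each gene has 1 spread over all conditions. For HLA-B the interval was about as wide with sgPRMT5-2 (-1.12 to 0.32), where its replicates lay close together. The median over the 8 genes was 0.06 beside -0.01 over all genes tested. Without sgWDR77-1 replicate 1, TAP1 passed at 0.47 (limma voom adjusted p = 0.0177) beside TAPBP at 0.46 (adjusted p = 0.0139), and without replicate 3 B2M passed as lower at -0.53 (adjusted p = 0.0273). The TAPBP call was lost without sgNeg replicate 2 (0.38, limma voom adjusted p = 0.0683), without sgNeg replicate 3 (0.36, 0.112), without sgWDR77-1 replicates 1 and 3 together (0.40, 0.191) and in a fit of the 6 libraries alone (0.47, 0.074).

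With sgWDR77-2, the guide with the lower mean level of WDR77 mRNA, none of the 8 tested genes changed by the main test. PSMB9 was at 25.0 ± 1.92 against 31.3 ± 4.57 CPM (SD, n = 3), with 2 of 3 libraries below every sgNeg library. TAPBP was at 69.4 ± 10.1 CPM, with 1 of 3 libraries above every sgNeg library. By limma voom 0 of 8 passed, beside 4.80% of all genes tested (1.81% higher and 2.98% lower), with 1 at an unadjusted p under 0.05 and 0 by limma-trend. An unadjusted p under 0.05 was reached by 2753 of the 14056 genes tested. PSMB9 had a log2 fold change of -0.31 (95% interval -0.63 to -0.00, limma voom adjusted p = 0.249) and TAPBP 0.21 (-0.02 to 0.45, limma voom adjusted p = 0.312). HLA-B had 0.18 (-0.49 to 0.85), HLA-C 0.16 (-0.11 to 0.42), HLA-E 0.07 (-0.20 to 0.34), B2M -0.10 (-0.43 to 0.23), TAP1 0.07 (-0.33 to 0.48) and NLRC5 0.11 (-0.31 to 0.53). The median over the 8 genes was 0.09 beside 0.02 over all genes tested. Set directly against each other, sgWDR77-2 and sgWDR77-1 gave 0 of 8 by limma voom, beside 2.41% of all genes tested (1.84% higher and 0.569% lower), with 0 at an unadjusted p under 0.05 and 0 by limma-trend. The nearest gene was TAPBP at -0.23 (95% interval -0.46 to 0.00, limma voom adjusted p = 0.273), followed by B2M at 0.24 (-0.09 to 0.57, limma voom adjusted p = 0.44).

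Pooled over both WDR77 guides, TAPBP rose in WDR77KO, a call that leaving out any of 11 libraries ended. TAPBP was above every sgNeg library in 4 of 6 libraries. This was 1 of 8 genes higher, beside 2.90% of all genes tested called higher, 5.55% called lower and 8.44% in either direction. The log2 fold change was 0.33 (95% interval 0.12 to 0.53, limma voom adjusted p = 0.0405). PSMB9 had -0.32 (-0.59 to -0.06, limma voom adjusted p = 0.129) with 4 of 6 libraries below sgNeg, and B2M -0.22 (-0.50 to 0.07, limma voom adjusted p = 0.38) with 3 of 6. HLA-B, HLA-C, HLA-E, TAP1 and NLRC5 had 0.08, 0.13, 0.10, 0.09 and 0.06, all with intervals across 0. The median over the 8 genes was 0.09 beside 0.00 over all genes tested. The TAPBP call held only without sgNeg replicate 1, sgPRMT5-1 replicate 1, sgWDR77-1 replicate 1 (0.33, limma voom adjusted p = 0.024) or sgWDR77-2 replicate 1, and it was lost without any of the other 11, to as little as 0.24 (adjusted p = 0.272) without sgNeg replicate 3. It was not made without the filter on low counts either (0.33, limma voom adjusted p = 0.0698), without sgWDR77-1 replicates 1 and 3 together (0.29, 0.114) or in a fit of the 9 libraries alone (0.33, 0.205). Without sgWDR77-1 replicate 3, PSMB9 passed in its place (-0.39, limma voom adjusted p = 0.0487).

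The difference between the 2 knockouts was tested directly, without sgNeg in the contrast. TAPBP and PSMB9 were lower in PRMT5KO than in WDR77KO, each with 3 of 6 PRMT5-guide libraries, those of sgPRMT5-2, below every WDR77-guide library. These were 2 of 8 genes lower, beside 11.4% of all genes tested called lower, 15.7% called higher and 27.1% in either direction. TAPBP differed by -0.48 on the log2 scale (95% interval -0.65 to -0.31, limma voom adjusted p = 0.000164) and PSMB9 by -0.42 (-0.66 to -0.18, limma voom adjusted p = 0.0101). HLA-B differed by -0.43 (-0.94 to 0.07, limma voom adjusted p = 0.195), HLA-C by -0.18 (-0.37 to 0.01, limma voom adjusted p = 0.141) and HLA-E by -0.15 (-0.34 to 0.05, limma voom adjusted p = 0.257). B2M, TAP1 and NLRC5 differed by -0.02, -0.06 and 0.12, and the median over the 8 genes was -0.16 beside 0.02 over all genes tested.

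Leaving out sgWDR77-1 replicate 1 or replicate 3 moved this comparison in opposite directions. Without replicate 1, 6 of the 8 genes were lower in PRMT5KO, with HLA-B at -0.76 (limma voom adjusted p = 0.00107), HLA-C at -0.30 (0.00255), TAP1 at -0.26 (0.0202) and B2M at -0.19 (0.0377) beside TAPBP at -0.51 (5e-05) and PSMB9 at -0.54 (0.000357). HLA-E at -0.22 (limma voom adjusted p = 0.053) and NLRC5 at -0.08 did not pass, and 4351 genes in place of 3813 were called over the whole table. Without replicate 3, TAPBP at -0.48 (limma voom adjusted p = 0.000309) and PSMB9 at -0.36 (0.0245) were again the 2 genes called, HLA-B had -0.22 (0.479) and HLA-C -0.10 (0.332), and B2M and TAP1 turned to 0.07 and 0.08. Without both, a fit chosen after seeing the data, 3 of the 8 were lower, HLA-B at -0.59 (limma voom adjusted p = 0.01998), TAPBP at -0.47 (0.00144) and PSMB9 at -0.47 (0.00679), while HLA-C at -0.19 (0.068), TAP1 at -0.13 (0.307) and B2M at -0.12 (0.298) did not pass. In a fit of the 12 knockout libraries alone PSMB9 did not pass (-0.42, limma voom adjusted p = 0.102).

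Other subunits of the immunoproteasome were lower beside PSMB9 with sgPRMT5-2. PSMB8, which replaces PSMB5, stood at 53.5, 39.9 and 46.4 CPM in sgNeg, 38.0, 40.1 and 39.2 CPM in sgPRMT5-1, 24.9, 24.3 and 25.6 CPM in sgPRMT5-2, 47.8, 42.0 and 46.5 CPM in sgWDR77-1, and 38.7, 42.6 and 47.4 CPM in sgWDR77-2. PSMB10, which replaces PSMB7, stood at 24.9, 16.9 and 17.2 CPM in sgNeg, 15.6, 14.8 and 15.1 CPM in sgPRMT5-1, 6.69, 8.16 and 7.11 CPM in sgPRMT5-2, 10.9, 16.8 and 21.5 CPM in sgWDR77-1, and 13.5, 15.7 and 15.3 CPM in sgWDR77-2. PSME1, a subunit of the activator PA28, was at 231 ± 26.8 CPM in sgNeg, 207 ± 13.7 CPM in sgPRMT5-1, 153 ± 6.199 CPM in sgPRMT5-2, 230 ± 10.8 CPM in sgWDR77-1 and 244 ± 20.4 CPM in sgWDR77-2 (SD, n = 3). For all 3 genes the sgPRMT5-2 libraries were the lowest of the 15, and no library of another condition overlapped them.

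Of the 5 other immunoproteasome and activator genes, 3 fell and 1 rose in PRMT5KO, beside 10.8% of all genes tested called lower and 12.0% called higher, with a median log2 fold change of -0.37 (0.01 over all genes tested). By guide, 3 fell and 1 rose with sgPRMT5-2 (median -0.59), and 0 of the 5 passed limma voom with sgPRMT5-1 (2 at an unadjusted p under 0.05, 0 by limma-trend, median -0.16), where PSMB8 had -0.24 (limma voom adjusted p = 0.285), PSMB10 -0.35 (0.344) and PSME1 -0.16 (0.414). PSMB8 had -0.57 (limma voom adjusted p = 0.000452, 5 of 6 libraries below sgNeg), PSMB10 -0.88 (0.00106, 6 of 6) and PSME1 -0.37 (0.00249, 5 of 6), and each passed with any 1 library left out. The 1 higher gene was POMP, a proteasome assembly factor named after its values were seen, at 0.34 (limma voom adjusted p = 0.00365, 6 of 6 libraries above sgNeg). Between the guides, PSMB8, PSMB10 and PSME1 were lower with sgPRMT5-2 than with sgPRMT5-1 by log2 differences of -0.65 (limma voom adjusted p = 0.00281), -1.05 (0.0082) and -0.43 (0.0079). The PSMB10 difference was not called without sgPRMT5-2 replicate 1 (-0.98, limma voom adjusted p = 0.0559), nor that of PSME1 without sgPRMT5-1 replicate 2 (-0.38, 0.061) or sgPRMT5-2 replicate 2 (-0.40, 0.0519). In WDR77KO 0 of the 5 passed limma voom, with 0 at an unadjusted p under 0.05, 0 by limma-trend and a median of -0.07. By guide, 1 of the 5 was lower with sgWDR77-1, beside 5.90% of all genes tested, 0 passed limma voom with sgWDR77-2 (1 at an unadjusted p under 0.05, 0 by limma-trend), and 2 were higher in sgWDR77-2 than in sgWDR77-1, beside 1.84%. In WDR77KO PSMB10 had -0.34 (95% interval -0.68 to 0.01, limma voom adjusted p = 0.237). Against WDR77KO, PRMT5KO was lower in PSMB8 by -0.50 (limma voom adjusted p = 0.000247), PSMB10 by -0.54 (0.0134; 0.1045 in a fit of these 12 libraries alone) and PSME1 by -0.41 (0.00014). PSMB10 counts are uncertain, with 39.4% of its exon bases under other genes of the same strand.

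The standard subunits that PSMB9, PSMB8 and PSMB10 replace did not fall with PRMT5 guides. Of PSMB5, PSMB6 and PSMB7, 1 rose in PRMT5KO, where 12.0% of all genes tested were called higher, and the median was 0.30. PSMB7 had 0.30 (limma voom adjusted p = 0.0127, 6 of 6 libraries above sgNeg), but did not pass without sgNeg replicate 1 (0.28, 0.0655), sgNeg replicate 2 (0.25, 0.0881) or sgPRMT5-2 replicate 2 (0.25, 0.0526), nor with library totals (0.22, 0.0594). In sgPRMT5-2 2 of the 3 rose, beside 16.3% of all genes tested, PSMB7 at 0.38 (limma voom adjusted p = 0.00429) and PSMB5 at 0.43 (0.026), each in 3 of 3 libraries, though PSMB5 did not pass without any 1 of the 6 libraries of sgNeg and sgPRMT5-2 (as low as 0.35, 0.121, without sgNeg replicate 2) nor with library totals (0.34, 0.0914). PSMB6, the counterpart of PSMB9, stood at 85.0, 73.0 and 86.2 CPM in sgNeg and at 48.6, 56.1 and 61.5 CPM in sgWDR77-1, and 2 of the 3 fell with that guide, beside 5.90% of all genes tested, PSMB6 at -0.56 (limma voom adjusted p = 0.00274) and PSMB7 at -0.34 (0.0329), each in 3 of 3 libraries. The PSMB7 call was lost without sgNeg replicate 1 (-0.35, limma voom adjusted p = 0.0685), sgNeg replicate 3 (-0.34, 0.0917), sgPRMT5-2 replicate 3 (-0.34, 0.052) or sgWDR77-1 replicate 1 (-0.29, 0.0796) and without the filter on low counts (-0.34, 0.0521), and neither gene passed in a fit of the 6 libraries alone (PSMB6 -0.53, 0.0511, and PSMB7 -0.31, 0.164). With sgWDR77-2 all 3 were higher than with sgWDR77-1, beside 1.84% of all genes tested, with a median of 0.54, and in sgWDR77-1 replicate 1 PSMB5 was at 60.0 CPM against 99.8 and 99.3 CPM in replicates 2 and 3. Without sgWDR77-2 replicate 1 none of the 3 passed between the WDR77 guides (PSMB5 0.57, limma voom adjusted p = 0.164, PSMB6 0.50, 0.0877, and PSMB7 0.42, 0.107), without sgWDR77-2 replicate 2 only PSMB6 did (PSMB5 0.68, 0.07, and PSMB7 0.44, 0.0779), and none did in a fit of the 6 libraries alone (0.182 to 0.208). In WDR77KO 0 of the 3 passed limma voom, with 1 at an unadjusted p under 0.05, 0 by limma-trend and a median of -0.10, while all 3 were higher in PRMT5KO than in WDR77KO, beside 15.7% of all genes tested, with a median of 0.40. There PSMB5 did not pass without sgPRMT5-1 replicate 3 (0.25, limma voom adjusted p = 0.0883), sgPRMT5-2 replicate 1 (0.29, 0.0694) or 3 (0.29, 0.0675), sgWDR77-1 replicate 1 (0.17, 0.071) or sgWDR77-2 replicate 2 (0.30, 0.0649) or 3 (0.30, 0.0615), nor with library totals (0.26, 0.0814) or in a fit of the 12 libraries alone (0.32, 0.175). Per kilobase these subunits were at 75.9, 56.0 and 58.0 CPM per kb for PSMB5, PSMB6 and PSMB7, above PSMB8 at 11.4, PSMB10 at 9.03 and PSMB9 at 7.19 CPM per kb.

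**Figure D4:**
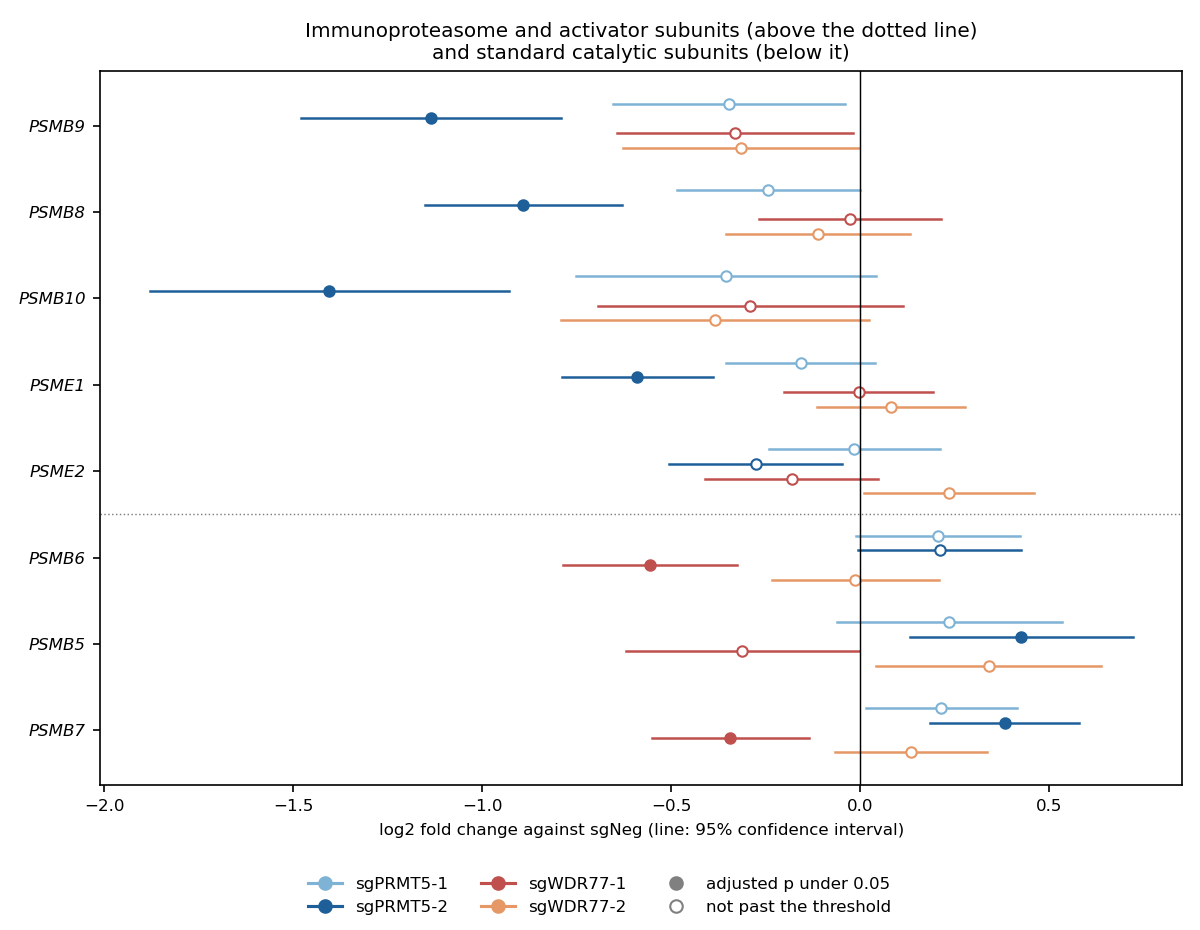
Log2 fold change against sgNeg (x axis) with 95% intervals for immunoproteasome and activator subunits (above the dotted line) and for the standard subunits (under it), in a colour for each guide, filled where the limma voom adjusted p was under 0.05. With sgPRMT5-2 the former include PSMB10 at -1.40 and PSMB8 at -0.89, and the latter PSMB5 at 0.43 and PSMB7 at 0.38.

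Among 8 other class I and class I-like heavy chains, 6 were tested. FCGRT, the heavy chain of the neonatal Fc receptor, is not counted. It passed the filter only through sgNeg, with 17, 15 and 9 counts there and a mean normalized count of 2.235 over the other 12 libraries, so that a lower level in the knockouts was part of its selection. Of the other 5, 2 fell and 1 rose in PRMT5KO, beside 10.8% and 12.0% of all genes tested, with a median of 0.01. With sgPRMT5-2 2 fell and 2 rose, beside 14.7% and 16.3%, and with sgPRMT5-1 0 of the 5 passed limma voom (1 at an unadjusted p under 0.05, 0 by limma-trend). HFE, which binds the transferrin receptor together with B2M, was at 90.9 ± 5.18 CPM in sgNeg and 41.4 ± 2.96 CPM in sgPRMT5-2 (SD, n = 3), and fell in PRMT5KO with a log2 fold change of -0.70 (limma voom adjusted p = 5.46e-05, 6 of 6 libraries). HLA-F, a non-classical chain, had -0.78 in PRMT5KO (limma voom adjusted p = 0.0332, 6 of 6 libraries), which did not pass without sgNeg replicate 1 (-0.62, 0.184), sgNeg replicate 2 (-0.85, 0.0638), sgPRMT5-1 replicate 3 (-0.76, 0.0635) or sgPRMT5-2 replicate 2 (-0.69, 0.0828), nor without the filter on low counts (-0.78, 0.0657). The 1 higher gene was MICA, a ligand of the receptor NKG2D named after its values were seen, at 0.46 (limma voom adjusted p = 0.0382). Its call held only without sgNeg replicate 1, sgPRMT5-1 replicate 2, sgWDR77-1 replicate 1 or 3, or sgWDR77-2 replicate 1, and was lost without any of the other 10 libraries, to as little as 0.27 (limma voom adjusted p = 0.306) without sgNeg replicate 2, as well as with RLE factors (0.43, 0.0515), with library totals (0.38, 0.087), without the filter (0.46, 0.076) and in a fit of the 9 libraries alone (0.44, 0.132). In WDR77KO 0 of the 5 passed limma voom, with 2 at an unadjusted p under 0.05, 1 higher by limma-trend and a median of 0.10.

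Of 7 other genes of peptide loading and trimming, 0 passed limma voom in PRMT5KO, with 1 at an unadjusted p under 0.05, 0 by limma-trend and a median of 0.04, and 1 rose in WDR77KO, beside 2.90% of all genes tested, with a median of 0.18. With single guides 2 of the 7 were lower with sgPRMT5-2, beside 14.7% of all genes tested, and 2 higher with sgWDR77-1 (1 by limma-trend), beside 3.58%, while 0 passed limma voom with sgPRMT5-1 (0 at an unadjusted p under 0.05) and with sgWDR77-2 (2), 0 by limma-trend in both. Set directly against WDR77KO, PRMT5KO was lower in 4 of the 7, beside 11.4%, with a median of -0.22. The gene that rose in WDR77KO was CALR, calreticulin, which holds the heavy chain in the loading complex, at 0.31 (limma voom adjusted p = 0.0464). Its highest level, 1564 CPM, was in sgWDR77-1 replicate 1, the library in which HLA-B, B2M and TAP1 were lowest, and without it the log2 fold change in WDR77KO was 0.22. Most, but not all, of the other genes of this list were also highest in that library, and its part in the counts of the list was not tested. The CALR call held only without sgNeg replicate 1, without sgWDR77-1 replicate 1 (limma voom adjusted p = 0.0166), 2 or 3, or without sgWDR77-2 replicate 1, and was lost without any of the other 10 libraries, to as little as 0.22 (0.241) without sgNeg replicate 2. It was also lost with limma-trend (0.31, adjusted p = 0.0663), without the filter (limma voom adjusted p = 0.0598) and in a fit of the 9 libraries alone (0.197).

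Genes of the signalling upstream of these promoters and of factors that bind them were counted by list. The counts are to be read beside the shares of all genes tested, 12.0% called higher and 10.8% called lower in PRMT5KO and 2.90% and 5.55% in WDR77KO, with medians of 0.01 and 0.00. Both interferon lists hold receptors and kinases beside transcription factors. That of interferon gamma also holds inhibitors, so its counts and median mix genes of opposite roles. Of 8 genes of interferon gamma signalling, 1 fell in PRMT5KO (median -0.00), and 0 passed limma voom in WDR77KO, with 3 at an unadjusted p under 0.05 and 0 by limma-trend (median 0.19). IRF1, an activator of class I promoters, stood at 62.0, 56.2 and 65.7 CPM in sgNeg, 59.0, 49.7 and 46.4 CPM in sgPRMT5-1, 35.0, 35.2 and 31.1 CPM in sgPRMT5-2, 52.7, 63.1 and 70.8 CPM in sgWDR77-1, and 44.7, 56.9 and 53.3 CPM in sgWDR77-2. As with PSMB9, the 3 lowest libraries were those of sgPRMT5-2, and IRF1 fell in PRMT5KO with -0.55 (limma voom adjusted p = 0.00107, 5 of 6 libraries below sgNeg). The knockouts differed in IRF1 by -0.43 (limma voom adjusted p = 0.00154; 0.0541 in a fit of the 12 libraries alone).

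Of 5 genes of type I interferon signalling, 4 were tested, IRF9 having 0 counts in all libraries. As for TAP2, this 0 cannot be read as absence of its RNA. Of the exon bases of IRF9, 23.9% lie under another gene of the same strand, and the cause was not tested. STAT2 was the 1 that fell in PRMT5KO, with -0.43 (limma voom adjusted p = 0.0131; median -0.16), but not without sgNeg replicate 1 (-0.39, 0.0814) or sgNeg replicate 2 (-0.40, 0.0718), and in WDR77KO 0 passed limma voom, with 0 at an unadjusted p under 0.05 and 0 by limma-trend (median 0.01). Of 8 factors of the SXY box, the promoter module through which NLRC5 acts, 1 rose and 1 fell in PRMT5KO (median 0.05) and 1 rose in WDR77KO (median 0.07), and 1 of 8 in a direction is close to the 12.0% and 10.8% over all genes in PRMT5KO. These were NFYC at 0.35 (limma voom adjusted p = 0.035) and NFYB at -0.32 (0.0327) in PRMT5KO and NFYA at 0.30 (0.0449) in WDR77KO. Each of these 3 calls rested on single libraries. That of NFYC was lost without sgNeg replicate 1 or 2, sgPRMT5-1 replicate 1 or 3, sgPRMT5-2 replicate 1 or 3, sgWDR77-1 replicate 2, or sgWDR77-2 replicate 2 or 3, to as little as 0.22 (limma voom adjusted p = 0.266) without sgNeg replicate 2. NFYB lost its call without sgNeg replicate 1 (-0.34, limma voom adjusted p = 0.0742) or 2 (-0.30, 0.109), sgPRMT5-1 replicate 2 (-0.32, 0.0504) or sgPRMT5-2 replicate 1 (-0.33, 0.0519) or 3 (-0.33, 0.0501). NFYA kept its call only without sgPRMT5-1 replicate 2 or without sgWDR77-1 replicate 1, 2 or 3, and had 0.26 (limma voom adjusted p = 0.177) without sgNeg replicate 3. Without the filter on low counts the 3 genes did not pass either (limma voom adjusted p = 0.0706, 0.0629 and 0.0742), nor did NFYC with library totals (0.27, 0.0921), nor NFYC (0.34, 0.1036) and NFYA (0.30, 0.146) in a fit of the 9 libraries alone. Of 4 NF-kB subunits, which bind enhancer A of class I promoters, 2 rose in PRMT5KO (median 0.33) and 1 rose in WDR77KO (median 0.08). NFKB1 stood at 128, 120 and 139 CPM in sgNeg and at 197, 197 and 197 CPM in sgPRMT5-2, and rose in PRMT5KO with 0.47 (limma voom adjusted p = 0.000165, 6 of 6 libraries) and in WDR77KO with 0.30 (0.0156, 6 of 6), the latter not without sgNeg replicate 1 (0.28, 0.0732) or replicate 2 (0.24, 0.102) nor in a fit of the 9 libraries alone (0.31, 0.0973). RELB rose in PRMT5KO with 0.63 (limma voom adjusted p = 0.00151, 6 of 6 libraries).

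By single guide these 4 lists of regulators gave the following counts. With sgPRMT5-2, 1 gene was higher and 1 lower in interferon gamma signalling, 1 lower in type I signalling, 1 higher among the SXY factors and 4 of 4 higher among the NF-kB subunits, beside 16.3% higher and 14.7% lower over all genes tested. With sgPRMT5-1, 1 NF-kB subunit was higher (0 by limma-trend), beside 1.26%, and the other 3 lists had 0 by limma voom and by limma-trend, with 0, 0 and 2 genes at an unadjusted p under 0.05. With sgWDR77-1, 1 gene each was higher in interferon gamma signalling, the SXY factors and the NF-kB subunits, beside 3.58%, and type I signalling had 0 by limma voom, at an unadjusted p under 0.05 and by limma-trend. With sgWDR77-2 all 4 lists had 0 by limma voom and by limma-trend, with 0, 0, 2 and 2 genes at an unadjusted p under 0.05. Set directly against WDR77KO, PRMT5KO was lower in 3 genes of interferon gamma signalling and 1 of type I signalling, lower in 2 and higher in 1 of the SXY factors, and higher in 3 of the 4 NF-kB subunits, beside 11.4% lower and 15.7% higher.

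Of 9 MHC class II genes, 3 were tested and all 3 fell in PRMT5KO (median -2.35), beside 10.8% of all genes tested, and 2 in WDR77KO (median -1.56), beside 5.55%, CD74 with -3.34 (limma voom adjusted p = 2.51e-07) and -2.59 (2.59e-06), 6 of 6 libraries each, from 11.9, 6.90 and 9.98 CPM in sgNeg. By guide, 2 of the 3 fell with sgPRMT5-1 (median -3.22), beside 1.61%, and 2 with sgPRMT5-2 (median -2.16), beside 14.7%. Likewise 2 fell with sgWDR77-1 (median -1.65), beside 5.90%, and 2 with sgWDR77-2 (1 by limma-trend, median -1.48), beside 2.98%. CIITA, the class II transactivator, fell in PRMT5KO with -2.35 (limma voom adjusted p = 0.000147) and in WDR77KO with -1.56 (0.00445), from only 2.71, 2.63 and 3.63 CPM in sgNeg. HLA-DMA, at -2.01 in PRMT5KO (limma voom adjusted p = 0.0296), did not pass without sgNeg replicate 1 (-2.004, 0.0777) or 3 (-1.88, 0.0852), sgPRMT5-1 replicate 2 (-1.55, 0.0809) or 3 (-1.96, 0.0612), or sgPRMT5-2 replicate 3 (-1.64, 0.0754), nor with limma-trend (-1.24, 0.0636), without the filter (-2.02, 0.0513) or in a fit of the 9 libraries alone (-2.01, 0.0534). Of 15 interferon-stimulated genes, 8 fell in PRMT5KO (median -0.37), beside 10.8% of all genes tested, 7 rose in WDR77KO (median 0.51), beside 2.90%, and 14 were lower in PRMT5KO than in WDR77KO (median -0.90), beside 11.4%. Among those that fell in PRMT5KO, MX1 kept its call in 5 and IFI44L in 6 of the 7 alternatives that keep all libraries. Their log2 fold changes there were -0.71 to -0.63 and -0.82 to -0.74. The PRMT5 guides differed here, with 7 of 15 lower in sgPRMT5-2 than in sgPRMT5-1 (median -0.53), beside 3.98% of all genes tested. Against sgNeg 11 of 15 were lower with sgPRMT5-2 (median -0.70), beside 14.7%, and 0 by limma voom with sgPRMT5-1 (1 at an unadjusted p under 0.05, 0 by limma-trend, median -0.03), whereas 8 rose with sgWDR77-1 (median 0.64), beside 3.58%, and 7 with sgWDR77-2 (median 0.45), beside 1.81%, and 2 were higher in sgWDR77-2 than in sgWDR77-1, beside 1.84%. In sgWDR77-1 replicates 1, 2 and 3, MX1 stood at 114, 111 and 239 CPM. IFI44L stood there at 105, 120 and 253 CPM and IFIH1 at 70.75, 56.83 and 77 CPM. Replicate 3 was the highest of the 15 libraries for each of these genes, while some others of the list were highest elsewhere. The counts for sgWDR77-1 and WDR77KO hold this library, and its part in them was not tested. Of 8 interferon gamma-induced genes, 5 were tested. IDO1 and CXCL11 are not counted, since they passed the filter only through sgNeg and sgPRMT5-2, with mean normalized counts of 2.31 and 2.904 over the other libraries. Of the other 3, 2 fell in PRMT5KO (median -1.17), beside 10.8% of all genes tested, and 1 rose in WDR77KO (median 0.26), beside 2.90%. GBP4 fell in PRMT5KO with -1.40 (limma voom adjusted p = 5.53e-06) and had -0.16 in WDR77KO, where GBP1 was the gene that rose, with 0.55. With sgPRMT5-2 2 of these 3 fell, beside 14.7%, and with sgPRMT5-1 0 passed limma voom (2 at an unadjusted p under 0.05, 0 by limma-trend). The WDR77 guides went apart. With sgWDR77-1 2 of the 3 rose (median 0.71), beside 3.58%. With sgWDR77-2 0 passed limma voom (2 at an unadjusted p under 0.05, 0 by limma-trend, median -0.43). GBP4 and GBP2 were lower in sgWDR77-2 than in sgWDR77-1, beside 0.569%, with a median of -0.80 over the 3. The fits that ended these 2 calls are given below.

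Across the 15 libraries the members varied together to different degrees, in Pearson correlations of log2 CPM over libraries that share conditions, given as descriptions. Among the heavy chains r was 0.869 for HLA-B and HLA-C, 0.857 for HLA-C and HLA-E and 0.755 for HLA-B and HLA-E (n = 15), and 0.738, 0.836 and 0.744 without sgWDR77-1 replicates 1 and 3, the 2 libraries farthest from the median (n = 13). Between a heavy chain and another member r ran from -0.0265 for HLA-E and NLRC5 to 0.841 for HLA-B and TAP1 over 15 libraries, pairs that had -0.577 and 0.521 over 13, and B2M and PSMB9 had 0.629 over 15 and 0.782 over 13. NLRC5 had 0.421 with B2M over 15 libraries and -0.602 over 13, and TAPBP had 0.155 with B2M over 15 and 0.648 over 13. Among the 5 genes outside the members with the most similar pattern, of 10176 with a mean of at least 5 CPM, were GPR108 (r = 0.95 with the mean standardized level of the members, n = 15), TTC28-AS1 (0.927), ECH1 (0.927) and TMEM59 (0.91). Without the 2 farthest libraries these values were 0.944, 0.835, 0.895 and 0.808 (n = 13).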

How the data were processed

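All 15 RNA-seq libraries of HSC-5 were used and grouped into the 5 conditions by their labels. The authors made the files by STAR alignment to hg38 followed by HTSeq, so each deposited value is the count of reads on a gene, with no scaling. The labels name a stranded mRNA kit and the methods a kit that does not mark strand, and the strand setting of the counting was not given. HTSeq's 5 summary entries per library entered neither totals nor fits. They held 2.75% to 7.16% of reads as lying outside genes, 7.09% to 7.93% as ambiguous and 9.49% to 13.1% as multi-mapped. No replicate was a copy of another, since the chi-square statistic over its degrees of freedom was 1.55 to 17.7 between replicates. The conditions differed in this, with 1.55 to 2.44 in sgPRMT5-2, 2.02 to 6.04 in sgPRMT5-1 and 2.03 to 6.78 in sgWDR77-2. In sgNeg it was 3.86 to 9.16 and in sgWDR77-1 3.21 to 17.7, so the replicates of sgPRMT5-2 were the closest to one another.

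The members and the gene lists were chosen with earlier results of these data known. Counts were scaled by TMM (trims of 0.3 and 0.05, factors of 0.956 to 1.05), genes with a mean normalized count of at least 3 were kept, and limma voom (limma 3.58.1, R 4.3.3) was fitted once over all 15 libraries with condition as the only term. Tests were two-sided with Benjamini-Hochberg adjustment over the 14056 genes and a threshold of 0.05, and intervals are 95% intervals of the log2 fold change. The contrasts were each guide against sgNeg, both guides of a gene against sgNeg, the guides of a gene against each other, and PRMT5KO against WDR77KO. The authors used DESeq2. edgeR and DESeq2 were not used here, because the check of units could not read the count column.

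Genes were named if they were members or guide targets, if they were among the up to 3 genes of a list with the smallest adjusted p past the threshold in PRMT5KO or WDR77KO against sgNeg, or if they were among the 5 genes with a mean of at least 5 CPM most similar to the mean standardized log2 CPM of the members (prior count 2). A few genes that the rule or the lists held are not reported here, and counts and medians of lists are without them. FCGRT, IDO1 and CXCL11, which passed the filter only through 1 condition, are left out of list counts too, as was chosen after seeing the data. POMP, MICA and IRF9 were named after their values were seen, KRT5, KRT17, DSG3, SFN, ITGAM, COL1A1, CDH5 and VWF are given as markers, and PSMB5, PSMB6 and PSME2 are shown to complete their lists. Coordinates, exon lengths and overlaps came from GENCODE 44 (GRCh38), which held 60463 of the 60649 identifiers. Promoters came from RefSeq (GRCh38.p14). Figures were drawn with Python 3.11.15 and matplotlib 3.10.9.

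The fit was first tested on simulated data, in which 200 genes had known changes. Alternatives were RLE factors, library totals alone, no filter on low counts, a mean count of at least 10, the replicate number as a block, a fit of the compared libraries alone, limma-trend, and each library left out in turn. Leaving out sgWDR77-1 replicates 1 and 3 together was chosen after seeing the data.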

Additional observations from a re-analysis of the deposited data

Results flagged for a closer look

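The pooled groups of 6 libraries were searched for a library far from the other 5, by the gap to its nearest neighbour over the range of the group (Dixon's test at the 95% level). Of 68 groups, 6 held such a library, and chance alone marks about 1 in 20. In PRMT5KO these were FCGRT at 1.70 CPM in sgPRMT5-1 replicate 2 and HLA-DMA at 1.38 CPM in sgPRMT5-1 replicate 1. In WDR77KO CALR stood out at 1564 CPM in sgWDR77-1 replicate 1. The other 3 were all in sgWDR77-1 replicate 3, namely STAT2 at 156 CPM, MX1 at 239 CPM and IFI44L at 253 CPM. All 6 were the highest library of their group.

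Differences between groups that passed limma voom at an adjusted p of 0.05 are given here as log2 differences. Between the PRMT5 guides, sgPRMT5-2 was lower than sgPRMT5-1 in the members TAPBP (-0.45) and PSMB9 (-0.79), in HFE (-0.87), in the proteasome genes PSMB8 (-0.65), PSMB10 (-1.05) and PSME1 (-0.43), in IRF1 (-0.61) and STAT2 (-0.47), and in the interferon-responsive genes IFI44L (-0.96), IFIH1 (-0.46) and GBP4 (-2.02). NFKB1 was higher with sgPRMT5-2 (0.29). Between the WDR77 guides, sgWDR77-2 was lower than sgWDR77-1 in WDR77 (-0.85), GBP4 (-0.80) and GBP2 (-1.39) and higher in PSMB7 (0.48). STAT2 and IFI44L held their difference only without sgPRMT5-1 replicate 3 or without sgWDR77-1 replicate 1 or 3, with limma voom adjusted p up to 0.177 and 0.182 without sgPRMT5-1 replicate 1. With all libraries kept, both were also lost with RLE factors (limma voom adjusted p = 0.0547 and 0.05003), with library totals (0.0534 and 0.0577) and without the filter on low counts (0.111 and 0.1761), as was IFIH1 without the filter (0.069). IFIH1 and NFKB1 lost theirs without sgPRMT5-1 replicate 1 (-0.47 and 0.29, limma voom adjusted p = 0.104 and 0.143) or 2 (-0.42 and 0.26, 0.128 and 0.166) and without any 1 library of sgPRMT5-2 (-0.49 to -0.43 and 0.28 to 0.29). IRF1 lost it without sgPRMT5-1 replicate 1 (-0.52, limma voom adjusted p = 0.0648). Between the WDR77 guides, GBP2 lost it without sgWDR77-2 replicate 1 (-0.92, limma voom adjusted p = 0.0878) and GBP4 without replicate 1 (-0.67, 0.165) or 2 (-0.84, 0.073). Neither passed in a fit of the 6 libraries alone (limma voom adjusted p = 0.145 for GBP2 and 0.0618 for GBP4), nor did GBP4 without the filter (0.0545). The libraries on which TAPBP, PSMB10, PSME1, WDR77 and PSMB7 rested are named above.

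PRMT5KO was lower than WDR77KO in the members TAPBP (-0.48) and PSMB9 (-0.42), in the heavy chains HLA-F (-0.82) and HFE (-0.49), in CALR (-0.23), in PSMB8 (-0.50), PSMB10 (-0.54) and PSME1 (-0.41), in IRF1 (-0.43) and STAT2 (-0.63), and in MX1 (-1.96), IFI44L (-2.04), IFIH1 (-0.79), GBP4 (-1.24), GBP1 (-0.46) and GBP2 (-1.43). It was higher in PSMB7 (0.40), NFYC (0.28) and RELB (0.36). The guide targets differed as labelled, PRMT5 by -0.68 and WDR77 by 1.99. CALR lost this call without sgWDR77-2 replicate 2 (-0.22, limma voom adjusted p = 0.0651). NFYC lost it without sgPRMT5-1 replicate 1 (0.25, limma voom adjusted p = 0.0769) or 3 (0.22, 0.0958), sgPRMT5-2 replicate 1 (0.23, 0.107) or 3 (0.24, 0.0987), sgWDR77-1 replicate 2 (0.26, 0.063) or sgWDR77-2 replicate 2 (0.24, 0.0883). In a fit of the 12 libraries alone CALR, HFE, IRF1, NFYC, PSMB9, PSMB10 and RELB did not pass, with limma voom adjusted p from 0.0541 to 0.1045, nor did NFYC with library totals (0.22, 0.0845) or without the filter (0.28, 0.0643).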

How the results depend on the processing

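Over the alternatives that keep all libraries, the log2 fold changes of the 8 tested members kept their direction and their side of the threshold in 489 cases, reversed in 8, passed newly in 2 and no longer passed in 5. For the other named genes these numbers were 772, 1, 4 and 62. With 1 library left out they were 971, 80, 10 and 19 for the members and 1634, 15, 5 and 176 for the other named genes.

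Reversals lay near 0. HLA-E in sgPRMT5-1 became -0.0171 with RLE factors, -0.0504 with library totals and -0.0006 in a fit of the compared libraries alone. PSMB9 in sgWDR77-2 against sgWDR77-1 became -0.0037 and -0.0154 with RLE factors and library totals. With library totals TAP1 became -0.0496 and CALR -0.0043 in PRMT5KO. HLA-B in sgWDR77-1 became 0.0580 with the replicate block and 0.0178 in a fit of the compared libraries alone.

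Of the members, 1 passed in WDR77KO by the main test and 0 without the filter on low counts (TAPBP, limma voom adjusted p = 0.0698) and in a fit of the compared libraries alone (0.205). That fit also moved sgWDR77-1 from 1 to 0 and PRMT5KO against WDR77KO from 2 to 1. With 1 library left out the members passing ranged from 1 to 3 in sgPRMT5-2, 1 to 2 in PRMT5KO, 0 to 2 in sgWDR77-1, 0 to 1 in WDR77KO, 1 to 2 in sgPRMT5-2 against sgPRMT5-1, and 2 to 6 in PRMT5KO against WDR77KO. PSMB9 passed in every setting run in sgPRMT5-2, PRMT5KO and sgPRMT5-2 against sgPRMT5-1, with 1 library left out at -1.25 to -1.05, -0.86 to -0.66 and -0.86 to -0.73.

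With 1 library left out, log2 fold changes that changed sign ranged as follows. In sgPRMT5-1 HLA-E ran from -0.1443 to 0.0875, TAP1 from -0.0015 to 0.1223, TAPBP from -0.0294 to 0.1495 and NLRC5 from -0.1170 to 0.1722. In sgPRMT5-2 TAP1 ran from -0.1041 to 0.0197. In PRMT5KO HLA-E ran from -0.2031 to 0.0286, TAP1 from -0.0528 to 0.0710, NLRC5 from -0.0088 to 0.2804 and CALR from -0.0121 to 0.1313. In sgWDR77-1 HLA-B ran from -0.4650 to 0.5966, HLA-C from -0.0729 to 0.2998, HLA-E from -0.0217 to 0.2347, TAP1 from -0.1977 to 0.4696 and NLRC5 from -0.2028 to 0.3698. In sgWDR77-2 HLA-E ran from -0.0888 to 0.1430, TAP1 from -0.0142 to 0.1102 and NLRC5 from -0.0878 to 0.2014. In WDR77KO HLA-B ran from -0.1429 to 0.3858, HLA-E from -0.0553 to 0.1765, TAP1 from -0.0629 to 0.2682, NLRC5 from -0.1311 to 0.2357, PRMT5 from -0.0093 to 0.1876, HLA-F from -0.1285 to 0.1999, PSMB8 from -0.1860 to 0.0129, PSME1 from -0.0507 to 0.1021 and NFYC from -0.0578 to 0.1528. In sgPRMT5-2 against sgPRMT5-1 HLA-B ran from -0.2438 to 0.1039 and HLA-C from -0.0636 to 0.0361. In sgWDR77-2 against sgWDR77-1 HLA-B ran from -0.4216 to 0.6443, HLA-C from -0.1493 to 0.2285, HLA-E from -0.1693 to 0.0592, B2M from -0.0658 to 0.4361, TAP1 from -0.4028 to 0.2697, NLRC5 from -0.2683 to 0.3103 and PSMB9 from -0.1818 to 0.1597. In PRMT5KO against WDR77KO B2M ran from -0.1894 to 0.0658, TAP1 from -0.2630 to 0.0773, NLRC5 from -0.0762 to 0.2160 and NFYB from -0.0730 to 0.0467. The cause was not tested.

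Counts over all genes tested moved by over 1.5 times in the following cases. A fit of the compared libraries alone took sgWDR77-1 from 1333 to 385, WDR77KO from 1187 to 477, sgPRMT5-2 against sgPRMT5-1 from 1060 to 2689, PRMT5KO against WDR77KO from 3813 to 1962 and sgWDR77-2 against sgWDR77-1 from 339 to 17, the last also to 220 with library totals. With 1 library left out, sgPRMT5-1 ran from 116 (without sgPRMT5-1 replicate 3) to 859 beside 404, PRMT5KO from 1918 (without sgNeg replicate 1) to 4159 beside 3200, sgWDR77-1 from 677 (without sgNeg replicate 3) to 1496, sgWDR77-2 from 393 (without sgWDR77-2 replicate 2) to 1348 beside 674, WDR77KO from 743 (without sgNeg replicate 3) to 1575, sgPRMT5-2 against sgPRMT5-1 from 338 (without sgPRMT5-1 replicate 1) to 1980, and sgWDR77-2 against sgWDR77-1 from 45 (without sgWDR77-2 replicate 1) to 505. Library totals moved the share of calls that were higher from 43.8% to 27.1% in sgPRMT5-1, 52.6% to 37.9% in sgPRMT5-2, 52.7% to 34.2% in PRMT5KO, 76.4% to 60.0% in sgWDR77-2 against sgWDR77-1 and 57.8% to 41.0% in PRMT5KO against WDR77KO. DESeq2 and edgeR were listed as an alternative and not run.

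Leaving out sgWDR77-1 replicates 1 and 3 together, which leaves 1 library of that condition, was chosen after seeing the data. The members passing were then 3 in sgPRMT5-2 in place of 2, 2 in PRMT5KO in place of 1, 0 in sgWDR77-1 and 0 in WDR77KO in place of 1 each, and 3 in PRMT5KO against WDR77KO in place of 2. HLA-E in sgPRMT5-1 turned to -0.0146, HLA-B in sgWDR77-1 to 0.2900, PSME1 in WDR77KO to -0.0157 and HLA-C in sgPRMT5-2 against sgPRMT5-1 to 0.0003. In sgWDR77-2 against sgWDR77-1 HLA-B turned to -0.1399, NLRC5 to -0.2085 and PSMB9 to -0.0909, and in PRMT5KO against WDR77KO NLRC5 turned to -0.0249, FCGRT to -0.1035, NFYB to 0.0292 and NFYA to 0.0138. CALR, NFYA and NFKB1 in WDR77KO (limma voom adjusted p = 0.0957, 0.154 and 0.0508), ITGAM in WDR77KO and sgWDR77-1 (0.182 and 0.535), CDH5 and PSMB7 in sgWDR77-1 (0.117 and 0.298), CALR and PSMB5 in PRMT5KO against WDR77KO (0.0877 and 0.116), and PSMB5, PSMB6, PSMB7, GBP4 and GBP2 between the WDR77 guides (0.241 to 0.357) no longer passed. NFYA in PRMT5KO, NFYB in WDR77KO and NFKB1 in PRMT5KO against WDR77KO passed newly (limma voom adjusted p = 0.0271, 0.034 and 0.0358). Genes called were 764 in sgPRMT5-1, 293 in sgWDR77-1, 1286 in sgWDR77-2, 1896 between the PRMT5 guides and 17 between the WDR77 guides.

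Replicate numbers did not pair the libraries. Of 30 correlations of same-numbered deviations, -0.21 to 0.179, 2 were above 0.1, and 5 of 15 libraries correlated best with their own number. With the replicate number as a block 0 members passed in WDR77KO in place of 1 (TAPBP, 0.33, limma voom adjusted p = 0.0529), and MX1 in PRMT5KO (adjusted p = 0.0563), COL1A1 in sgPRMT5-2 (0.0691) and CALR (0.0504) and NFYA (0.0516) in WDR77KO did not pass, nor did STAT2 (0.0599) and NFKB1 (0.05004) between the PRMT5 guides. Genes called were 342 in sgPRMT5-1, 4239 in sgPRMT5-2, 3029 in PRMT5KO, 1193 in sgWDR77-1, 592 in sgWDR77-2 and 1062 in WDR77KO.

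Among the members depth limits HLA-B most, with 25 to 110 counts per library. Other named genes rest on fewer, such as HLA-DMA with 0 to 9, ITGAM with 1 to 13, FCGRT with 0 to 17, CIITA with 1 to 20 and HLA-F with 13 to 66. Left-out fits keep 2 libraries in a condition, and the spread is then taken from all libraries.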
